A study of Mus musculus with 11 samples.

Results

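The genes of 2 lipid droplet protein families were followed over 11 arrays of mouse 3T3-L1 cells: the perilipins Plin2 and Plin4, and the CIDE genes Cidea, Cideb and Cidec. All probe sets annotated to these genes were taken, which gave 5 probe sets, 1 per gene, of 12422 probe sets on the array that are not controls (5 of 8251 genes with a probe set of their own). They were 98589_at for Plin2, 102763_at for Plin4, 99994_at for Cidea, 102329_at for Cideb and 102016_at for Cidec, and all 5 were among the 11739 probe sets bright enough to test. 3T3-L1 cells, mouse fibroblasts of an established line, turn into fat cells in culture when treated with hormones; the labels leave unsaid whether these had been. Total RNA was taken after 24 h with vehicle (0.1% DMSO, 3 arrays), pioglitazone at 20 µM (2 arrays), rosiglitazone at 1 µM (3 arrays) or troglitazone at 20 µM (3 arrays). The titles place replicates 1 and 2 of each group in a first set of 8 arrays, and replicate 4 of vehicle, rosiglitazone and troglitazone in a second set of 3 arrays. All 3 drugs are thiazolidinediones, which bind and activate the nuclear receptor PPARγ, and the question taken up here is what each did to the transcripts of the droplet proteins. Nothing in the labels says whether replicates were separate cultures, so p-values measure only the spread between these samples.

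Fat cells store triglyceride in droplets bounded by a single layer of phospholipid, and perilipins coat that layer and control the access of lipases to the lipid inside. Plin2 coats droplets in most cell types and is broken down when it is not bound to lipid, whereas Plin4 coats small, newly formed droplets in adipocytes. CIDE proteins gather where droplets touch and pass lipid from the smaller to the larger: Cidec serves the single large droplet of white adipocytes, Cidea is known from brown fat, and Cideb from liver, where it takes part in loading lipoproteins. PPARγ is the main transcription factor of fat cell formation, and Plin2, Cidec, Cidea and Plin4 are known targets.

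The sequence just upstream of the start site is shown for Plin2 and Cidec, the members that rose with every drug. It is the 250 bases before the annotated start in RefSeq (GRCm38.p6), read 5′ to 3′ on the strand of the gene, with matches to the searched motifs in capitals. Cidec has 2 annotated starts.
Plin2, chr4:86670060-86670309, minus strand: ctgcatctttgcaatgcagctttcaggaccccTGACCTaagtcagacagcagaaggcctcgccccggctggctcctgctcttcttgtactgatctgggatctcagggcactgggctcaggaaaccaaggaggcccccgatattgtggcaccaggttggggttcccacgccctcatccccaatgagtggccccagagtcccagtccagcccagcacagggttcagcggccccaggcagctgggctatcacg
Cidec, first start, chr6:113435761-113436010, minus strand: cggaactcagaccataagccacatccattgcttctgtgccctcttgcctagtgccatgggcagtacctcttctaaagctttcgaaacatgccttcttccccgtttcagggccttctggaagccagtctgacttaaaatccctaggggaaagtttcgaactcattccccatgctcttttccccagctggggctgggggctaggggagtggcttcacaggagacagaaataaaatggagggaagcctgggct
Cidec, second start, chr6:113434765-113435014, minus strand: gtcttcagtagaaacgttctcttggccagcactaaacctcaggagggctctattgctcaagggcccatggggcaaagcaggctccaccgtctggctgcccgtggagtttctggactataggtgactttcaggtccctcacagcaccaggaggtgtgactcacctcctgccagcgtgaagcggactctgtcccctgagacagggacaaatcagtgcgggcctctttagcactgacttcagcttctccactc
The motifs searched on both strands were AGGTCA, the core bound by nuclear receptors; the PPAR element, in which 2 copies of AGGTCA run the same way with 1 base of any kind between them, so that it overlaps the former by construction; CACGTG, the E-box; TATAAA, the TATA box; and GGGCGG, the GC box. The Plin2 window held 1 match, AGGTCA on the opposite strand, from 218 to 213 bases before the start. AGGTCA occurs in 14% of 32851 mouse windows of this length, the PPAR element in 0.0335% and CACGTG in 6.02%. The windows of Cidec and Plin4 held no match to any of the 5 motifs. That of Cideb held TATAAA, from 172 to 167 bases before the start, and GGGCGG, from 144 to 139 (in 12.4% and 32.7% of all windows). Of the 5 members, 4 had a window in the table. A match here is a match of letters, and these arrays do not measure binding. The PPAR element was searched as exact letters within 250 bases, where 0.0335% of windows hold it. Its absence from these windows is therefore uninformative.

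Signal is given in the linear units of the deposited table. A brighter probe set need not mean more transcript, so each gene is compared only with itself. Changes are log2 differences from a linear model over all 11 arrays with a term for the set, each with its standard error (SE), and "rose", "fell" and "passed" mean a limma p-value adjusted over all 11739 tested probe sets under 0.05. Values below a floor of 73.7 were raised to it before the logarithm. The 3 drugs were set against the same 3 vehicle arrays, so their differences from vehicle are not independent of each other. Pioglitazone had 2 arrays in set 1 and 0 in set 2, so set 2 arrays enter its comparisons only through the set term. That term rests on the vehicle, rosiglitazone and troglitazone arrays. Within set 1, 2 arrays against 2, the pioglitazone ratio to vehicle was 2.31 for Plin2, 2.81 for Cidec and 1.65 for Cidea.

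Of the 5 members, 2 rose with pioglitazone, 3 with rosiglitazone and 3 with troglitazone, and 0 fell with any of them. In either direction 0.903%, 1.35% and 1.33% of all tested probe sets passed with these drugs. Over all tested probe sets 0.63% rose with pioglitazone, 0.784% with rosiglitazone and 0.775% with troglitazone, and 0.273%, 0.571% and 0.554% fell. The median log2 difference of the members was 0.65, 0.99 and 1.07, against -0.08, 0.00 and -0.03 over all tested probe sets. Plin2 and Cidec rose with all 3 drugs, and Cidea with rosiglitazone and troglitazone. Plin4 and Cideb did not pass with any drug, although Plin4 was bright on all 11 arrays. None of the 8 calls was lost when any one of the 11 arrays was left out, although leaving out a pioglitazone array leaves 1 in that group. The calls did depend on the fit. With no intensity trend 1 of the 8 remained (Plin2 with troglitazone). In fits of only the 2 groups compared, which also have fewer arrays, again 1 remained (the same). What in those smaller fits ended the calls was not tested.

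**Figure D1:**
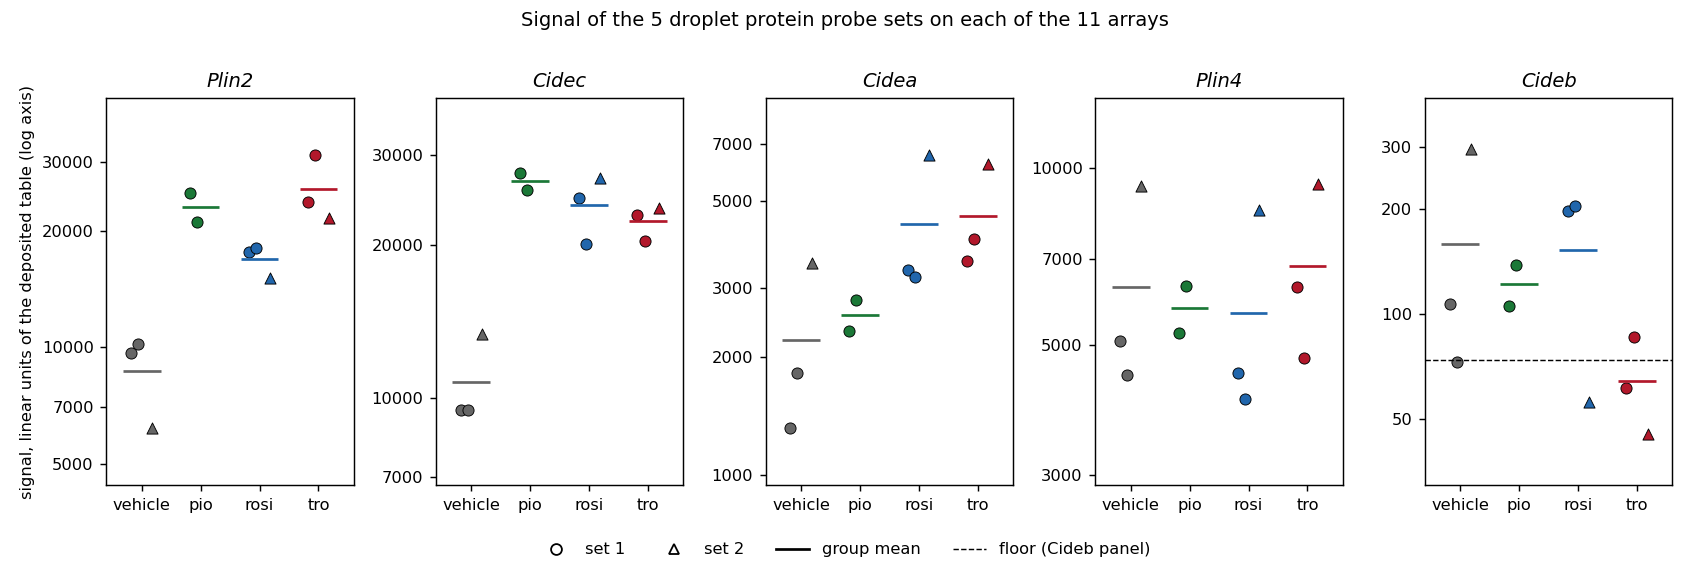
Signal of each of the 5 probe sets on every array (vertical log axis, linear units of the deposited table), by group; circles are set 1, triangles set 2, bars group means. Plin2 and Cidec lie above every vehicle array on all 8 treated arrays, while Plin4 and Cidea are split by set, and Cideb lies near the floor of 73.7 (dashed).

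Plin2, the perilipin found on droplets of most cells, had signals of 9675 and 10196 on the vehicle arrays of set 1 and 6178 on that of set 2. With pioglitazone it stood at 25005 and 20995, with rosiglitazone at 17606, 18033 and 15083, and with troglitazone at 23756, 31400 and 21541. All 8 treated arrays were above all 3 vehicle arrays, and the rosiglitazone arrays were below all the others that had received a drug. Plin2 rose 2.45-fold with pioglitazone (log2 1.29 ± 0.16, SE, n = 2 against 3, limma adjusted p = 0.000901). It rose 1.99-fold with rosiglitazone (0.99 ± 0.14, n = 3 against 3, limma adjusted p = 0.00138) and 2.98-fold with troglitazone (1.57 ± 0.14, n = 3 against 3, limma adjusted p = 2.13e-05). Within the sets, the rosiglitazone ratio to vehicle was 1.79 in set 1 and 2.44 in set 2, and the troglitazone ratio 2.75 and 3.49, so the direction was the same in each set. The rosiglitazone call did not hold with no set term (limma adjusted p = 0.162), in set 1 alone (0.144) or without the 2 arrays that stood apart from the rest (0.0623), which are described further on.

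Cidec, the CIDE protein of white fat droplets, had nearly equal signals of 9478 and 9483 on the vehicle arrays of set 1 and 13351 in set 2. With pioglitazone the signals were 27673 and 25621, with rosiglitazone 24697, 20068 and 27001, and with troglitazone 22892, 20308 and 23649. Again each of the 8 treated arrays exceeded each vehicle array, and here the pioglitazone arrays were among the brightest and the troglitazone arrays lower than those. Cidec rose 2.69-fold with pioglitazone (1.43 ± 0.15, n = 2 against 3, limma adjusted p = 0.000138), 2.23-fold with rosiglitazone (1.16 ± 0.13, n = 3 against 3, 0.000234) and 2.09-fold with troglitazone (1.07 ± 0.13, n = 3 against 3, 0.000219). The ratio to vehicle was 2.35 in set 1 and 2.02 in set 2 with rosiglitazone, and 2.27 and 1.77 with troglitazone. All 3 Cidec calls held in set 1 alone and without the 2 arrays that stood apart, and that with troglitazone was lost with no set term (limma adjusted p = 0.057).

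Cidea, the CIDE protein known from brown fat, had signals of 1318 and 1814 on the vehicle arrays of set 1 and 3484 on that of set 2. With pioglitazone it stood at 2327 and 2792, with rosiglitazone at 3336, 3194 and 6551, and with troglitazone at 3513, 4000.4 and 6209. The set 2 array was the brightest in each group that had one, so pooled groups overlapped for rosiglitazone, yet each treated array exceeded the vehicle arrays of its own set. Cidea rose 2.03-fold with rosiglitazone (1.02 ± 0.16, n = 3 against 3, limma adjusted p = 0.00369) and 2.19-fold with troglitazone (1.13 ± 0.16, n = 3 against 3, 0.00119). The ratio to vehicle was 2.11 in set 1 and 1.88 in set 2 with rosiglitazone, and 2.42 and 1.78 with troglitazone. With pioglitazone the difference was 0.65 ± 0.19 and did not pass (n = 2 against 3, limma adjusted p = 0.16), with a 95% interval of the fold from 1.19 to 2.08; after median centring it was 0.84 and passed (0.0464). The rosiglitazone call was lost in set 1 alone (limma adjusted p = 0.119) and without the 2 arrays that stood apart (0.0795). With no set term, both Cidea calls were lost (0.393 and 0.293).

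Plin4, the coat protein of small adipocyte droplets, was bright and moved little. Its signal was 5068 and 4435 with vehicle in set 1 and 9316 in set 2. It was 5246 and 6298 with pioglitazone, 4481, 4042 and 8487 with rosiglitazone, and 6265, 4754 and 9399 with troglitazone. Treated and vehicle arrays overlapped for each drug, and the main split was between the sets. The log2 difference from vehicle was 0.26 with pioglitazone (95% interval -0.09 to 0.61), -0.15 with rosiglitazone (-0.45 to 0.15) and 0.14 with troglitazone (-0.16 to 0.44). As folds, the upper ends of these intervals were 1.53, 1.11 and 1.36, each below the fitted rise of Plin2 and of Cidec with the same drug; the difference between the genes was not tested.

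Cideb, the liver member of the family, was dim, and 4 of its 11 values lay under the floor. Its signal with vehicle was 106.5 and 72.9 in set 1 and 296.2 in set 2. It was 105.4 and 137.9 with pioglitazone, 197.6, 203.4 and 55.8 with rosiglitazone, and 61.4, 85.8 and 45.3 with troglitazone. The set 2 vehicle array was the brightest of all 11, and the set 2 arrays of rosiglitazone and troglitazone the dimmest. The intervals of the log2 difference were wide, from -1.48 to 1.25 with pioglitazone, -1.06 to 1.30 with rosiglitazone and -1.95 to 0.41 with troglitazone. The sign of the Cideb difference turned for pioglitazone and for troglitazone without vehicle replicate 4 (0.44 and 0.066, from -0.12 and -0.77). For pioglitazone it also turned without pioglitazone replicate 1 (0.079) or rosiglitazone replicate 4 (0.14) and after median centring (0.068). For rosiglitazone (0.12) it turned without vehicle replicate 1 (-0.044) or 2 (-0.33) and without rosiglitazone replicate 1 (-0.15) or 2 (-0.17).

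**Figure D2:**
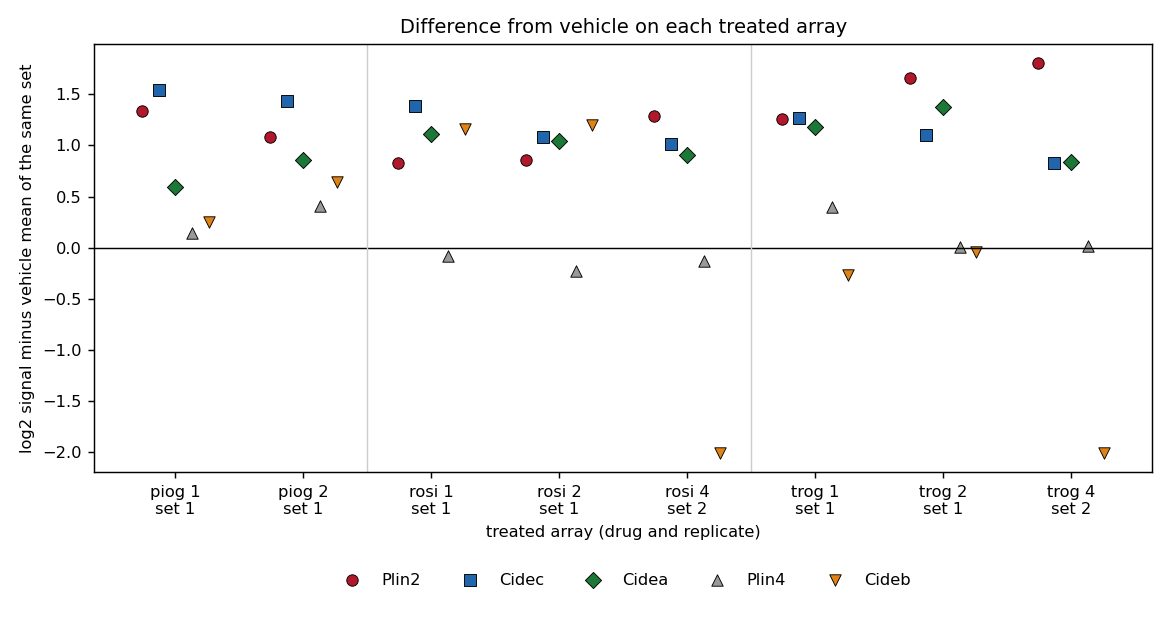
Log2 signal minus the mean of the vehicle arrays of the same set (vertical axis) on each of the 8 treated arrays (horizontal axis). Plin2, Cidec and Cidea are above 0 on 8 of 8 arrays, Plin4 on 5 and Cideb on 4, and Cideb falls to -2.01 on the 2 treated arrays of set 2, where its value is set by the floor.

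On single arrays, Plin2 was raised over the vehicle mean of its set by 0.83 to 1.80 on the log2 scale, Cidec by 0.82 to 1.55 and Cidea by 0.59 to 1.37. On troglitazone replicates 2 and 4 Plin2 was raised the most of the members (1.66 and 1.80), whereas on both pioglitazone arrays Cidec was (1.55 and 1.43). Groups did not overlap for 2 of 5 members with pioglitazone (Plin2 and Cidec), 2 with rosiglitazone (the same) and 3 with troglitazone (Plin2, Cidec and Cidea), in each case with the treated arrays higher. Over all tested probe sets this held for 9.07%, 4.78% and 4.77%, and the treated arrays lay wholly below for 10.3%, 6.01% and 6.07%. For Cidea with troglitazone the margin was narrow and lay across the sets. The lowest treated signal was 3512.5, in set 1, and the highest vehicle signal 3483.5, in set 2.

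Pioglitazone and troglitazone were both given at 20 µM for 24 h and differ in the part of the molecule away from the shared thiazolidinedione ring: troglitazone carries a chroman group like that of vitamin E, and pioglitazone a pyridine ring. For this 1 pair of drugs, 4 of 11739 probe sets passed (0.0341%; higher with troglitazone 0.0256%, lower 0.00852%), and 0 of the 5 members did; at an unadjusted p under 0.05 limma gave 745 probe sets and 2 members. Cidea was 1.39-fold higher with troglitazone (log2 0.48 ± 0.19, 95% interval 0.08 to 0.88, n = 3 against 2, limma adjusted p = 0.666). Cidec was lower with troglitazone by 1.28-fold (-0.36 ± 0.15, interval -0.67 to -0.05, limma adjusted p = 0.687), and Plin2 was 1.21-fold higher (0.28 ± 0.16, interval -0.06 to 0.62, limma adjusted p = 0.871). Plin4 differed by -0.12 (interval -0.47 to 0.23), a value whose sign turned after quantile normalisation (0.015) and without pioglitazone replicate 2 (0.012), and Cideb by -0.66 (-2.02 to 0.71). None of these differences is therefore shown, and the intervals still allow Cidea a difference of up to 1.84-fold and Plin2 of up to 1.54-fold. Rosiglitazone, which also carries a pyridine ring, was given at 1 µM. Side by side with the others, its fold was the smallest of the 3 for Plin2 (1.99, against 2.45 and 2.98) and lay between them for Cidec (2.23, against 2.69 with pioglitazone and 2.09 with troglitazone) and Cidea (2.03, against 1.57 and 2.19). As its dose differs, it was not tested against the others.

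**Figure D3:**
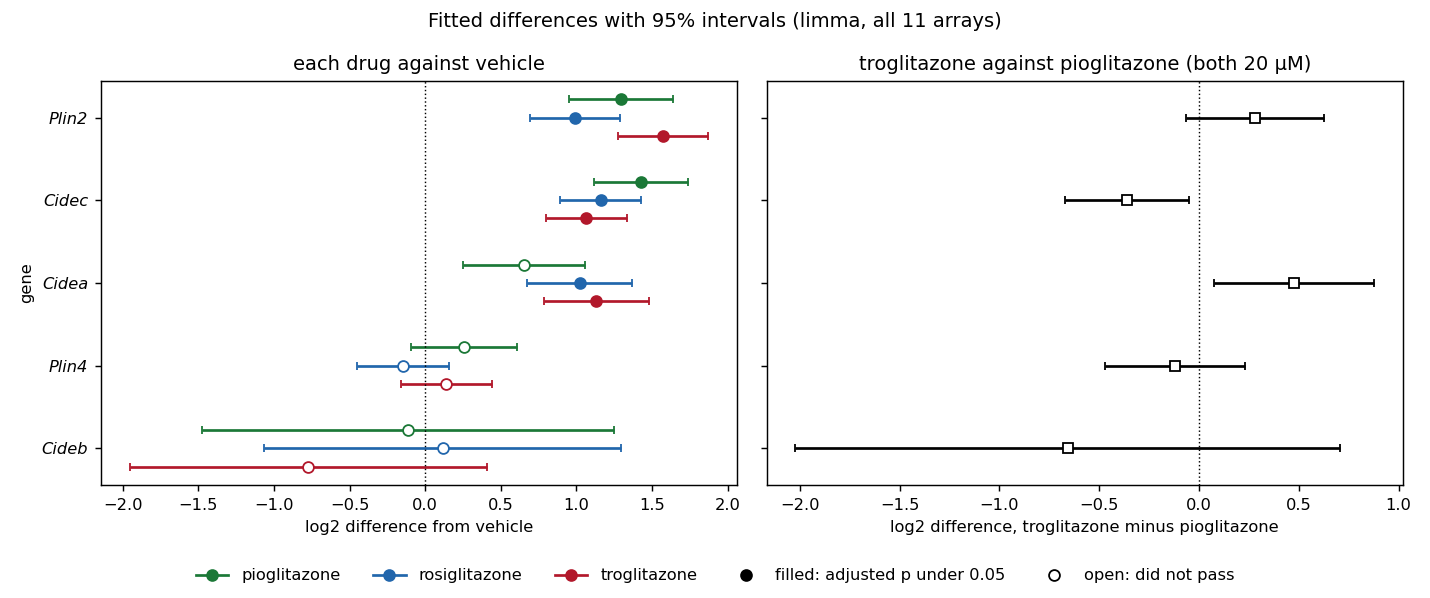
Fitted log2 differences with 95% intervals (horizontal axis) for each member: left, each drug against vehicle; right, troglitazone minus pioglitazone. Filled points passed at a limma adjusted p under 0.05; 8 of the 15 differences from vehicle are filled and 0 of the 5 between the drugs.

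The 2 sets differed in level for some members whatever the treatment. In the fitted model Cidea was 1.96-fold higher in set 2 (log2 0.97 ± 0.14) and Plin4 1.89-fold (0.92 ± 0.12), Cidec 1.23-fold (0.30 ± 0.11), and Plin2 lower by 0.42 ± 0.12, against a median of -0.17 over all tested probe sets. The ratio of 3′ to 5′ signal on the control probe sets for beta-actin, which grows with RNA degradation, moved with the set. It was 3.74 to 3.90 on the set 2 arrays and 1.79 to 2.27 on those of set 1 except pioglitazone replicate 2 (4.86). The same ratio for Gapdh did not separate the sets (1.68 to 2.08 in set 2, 1.07 to 2.19 in set 1). The part of these ratios in the set difference was not tested. With the beta-actin ratio as a further term in the model, the same numbers of members rose with each drug (2, 3 and 3). Whether a drug's effect on a member differed between the sets was tested for rosiglitazone and troglitazone in a model that gave each group its own mean in each set. No member passed for either drug (0 of 11739 probe sets did with limma, 437 and 288 at an unadjusted p under 0.05), with differences between the sets of 0.44 ± 0.30 for Plin2 and -0.22 ± 0.27 for Cidec with rosiglitazone, and 0.34 ± 0.30 and -0.36 ± 0.27 with troglitazone.

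Further facts of the whole series bear on these values. The correlation of log2 signal between any 2 arrays was 0.82 to 0.945. That of rosiglitazone replicate 2 with the others was low (median 0.833). Pioglitazone replicate 2 correlated well with the others (median 0.896) but had the highest beta-actin ratio (4.86). These are the 2 arrays left out above. All 9 adipocyte markers tested were above the floor on every array, with Adipoq at 41392 to 49893 and Lpl at 20455 to 26721 with vehicle, against 5 of 9 preadipocyte or fibroblast markers, 2 of 6 of brown adipocytes, 2 of 4 of macrophages, 3 of 4 of epithelium, 2 of 5 of skeletal muscle and 0 of 4 of hepatocytes. Ucp1, the defining protein of brown fat, lay between 7 and 265.4 over the 11 arrays. The summed brown adipocyte markers, which do not include Cidea, were 6284 to 8604 with vehicle and 9080 to 13238 with pioglitazone. They were 7842 to 10299 with rosiglitazone and 7596 to 8881 with troglitazone. Cox8b made up most of this sum (mean 6630 with vehicle and 9395 with pioglitazone) and did not pass with any drug. The skeletal muscle sums were 1092 to 1346 with vehicle, 1910 to 2775 with pioglitazone, 1327 to 2532 with rosiglitazone and 1111 to 2242 with troglitazone. The summed signal of the preadipocyte markers was 6529 to 7701 with vehicle and lower on every treated array. It was 3297 to 4137 with pioglitazone, 4199 to 5061 with rosiglitazone and 3372 to 4481 with troglitazone. With these drugs 0, 0 and 2 of the 9 markers fell, the 2 being Col1a1 and Col3a1 with troglitazone. The adipocyte marker sum was 84800 to 102527 with vehicle and 59351 to 77466 with troglitazone. It was 67819 to 87163 with pioglitazone and 76873 to 100141 with rosiglitazone. Adipoq and Lpl made up most of this sum (mean 46880 and 23197 with vehicle), and neither passed with any drug. Of its 9 genes 1, 2 and 2 fell with pioglitazone, rosiglitazone and troglitazone, Pparg among them each time. The other was Retn, 1.78-fold lower with rosiglitazone (limma adjusted p = 0.0394) and 3.20-fold lower with troglitazone (limma adjusted p = 0.000133). Of the 4 macrophage markers 1 fell with troglitazone (Cd14, signal 1084 to 1535 with vehicle and 301.4 to 756.4 with troglitazone, limma adjusted p = 0.0246), and no marker of the other 4 lists passed with any drug. The part of these marker shifts in the droplet protein values was not tested, and in bulk RNA fewer cells of a type cannot be told apart from less RNA per cell.

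The other genes of droplet biology were taken from lists. Beside the list counts here and below stand the shares of all tested probe sets that passed in either direction. These were 0.903% with pioglitazone, 1.35% with rosiglitazone and 1.33% with troglitazone. The annotation used here names no probe set for Plin1, Plin3 or Plin5, so the other perilipins were not analysed here. Of 24 listed genes of triglyceride synthesis and droplet growth, only 12 had a probe set named in the annotation, and Dgat2, Agpat2 and Acsl1 had none. Of the 12, all tested, 0 passed with pioglitazone, 1 rose with rosiglitazone and 0 passed with troglitazone (median log2 difference -0.03, 0.04 and -0.14). The riser was Agpat3, an acyltransferase of phospholipid synthesis (1.73-fold, 0.79 ± 0.18, limma adjusted p = 0.036), a call lost without any one of the vehicle, rosiglitazone or troglitazone arrays (9 of 11; adjusted p up to 0.195). Of 13 listed genes of lipolysis at the droplet, 8 had a probe set and were tested. Of these 8, 1 rose with pioglitazone, 1 with rosiglitazone and 2 with troglitazone, and 0 fell (median 0.23, 0.33 and -0.05). Abhd5, which is held by perilipins and released to activate the triglyceride lipase, had signals of 2224 to 2489 with vehicle, 4323 to 5632 with pioglitazone, 4365 to 4995 with rosiglitazone and 3402 to 4084 with troglitazone, with no overlap with vehicle. It rose 2.19-fold with pioglitazone (1.13 ± 0.16, limma adjusted p = 0.00249), 2.03-fold with rosiglitazone (1.02 ± 0.14, 0.00121) and 1.64-fold with troglitazone (0.71 ± 0.14, 0.018). The pioglitazone and rosiglitazone calls of Abhd5 held without any one array, and the troglitazone call was lost without vehicle replicate 1, 2 or 4 or troglitazone replicate 1 or 4 (adjusted p up to 0.138). In set 1 alone and with no intensity trend all 3 Abhd5 calls were lost, as were that with pioglitazone with only the groups compared and that with troglitazone there and with no set term (adjusted p up to 0.408, 0.16 and 0.387 for pioglitazone, rosiglitazone and troglitazone). Lipa, the acid lipase of lysosomes, rose 1.88-fold with troglitazone (0.91 ± 0.20, limma adjusted p = 0.0314), a call lost without 8 of the 11 arrays, that is any but vehicle replicate 2 and the pioglitazone arrays (adjusted p up to 0.309).

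Of 25 other listed droplet-associated proteins, 20 had a probe set and were tested. Of these 20, 1 fell with pioglitazone, 2 rose with rosiglitazone and 0 passed with troglitazone (median -0.33, -0.04 and -0.10). Lss, the lanosterol synthase of cholesterol synthesis, rose 1.97-fold with rosiglitazone (0.98 ± 0.19, limma adjusted p = 0.0151), a call lost without vehicle replicate 1 or 4 or any rosiglitazone array (5 of 11; adjusted p up to 0.117). Cavin1, a coat protein of the membrane pits called caveolae, rose 1.60-fold with rosiglitazone (0.68 ± 0.14, limma adjusted p = 0.0256); this call was lost without any vehicle array, rosiglitazone replicate 1 or 4 or troglitazone replicate 1 (6 of 11; adjusted p up to 0.197). A dimmer Cavin1 probe set stood at 0.23. Cav1, the main protein of the same pits, fell with pioglitazone (2.28-fold lower, -1.19 ± 0.24, limma adjusted p = 0.0277). This call was lost without 9 of the 11 arrays, any but pioglitazone replicate 2 and rosiglitazone replicate 4 (adjusted p up to 0.263). It is the brighter of 2 tested Cav1 probe sets, and the other is not reported here.

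Of 12 listed genes of PPARγ and its partners, 11 had a probe set and were tested. Of these 11, 2 fell with pioglitazone, 1 with rosiglitazone and 1 with troglitazone, and 0 rose (median 0.18, -0.18 and -0.07). Pparg itself fell with each drug while Plin2 and Cidec rose. Its signal was 1729 to 2886 with vehicle, 462.2 to 511.4 with pioglitazone, 665.0 to 1054 with rosiglitazone and 472.7 to 737.9 with troglitazone, with no overlap with vehicle. It was lower 3.80-fold (-1.93 ± 0.24, limma adjusted p = 0.000901), 2.70-fold (-1.43 ± 0.21, 0.00204) and 3.71-fold (-1.89 ± 0.21, 0.000133), and no left-out array ended these calls. The pioglitazone call of Pparg was lost in a fit of only the groups compared (limma adjusted p = 0.408), and the rosiglitazone call with no set term, in set 1 alone and with no intensity trend (adjusted p up to 0.119). Cebpd, a transcription factor of early fat cell formation, fell with pioglitazone (5.56-fold lower, -2.48 ± 0.45, limma adjusted p = 0.0138), a call lost without any vehicle array or pioglitazone replicate 1 (adjusted p up to 0.0948). Its pioglitazone signals were 26 and 176.2, the former under the floor, against 620 to 724.2 with vehicle, so the size of the fall is partly set by the floor: it was -1.85 without pioglitazone replicate 1 and -3.10 without replicate 2, and ran from -1.61 to -3.10 over all alternatives.

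**Figure D4:**
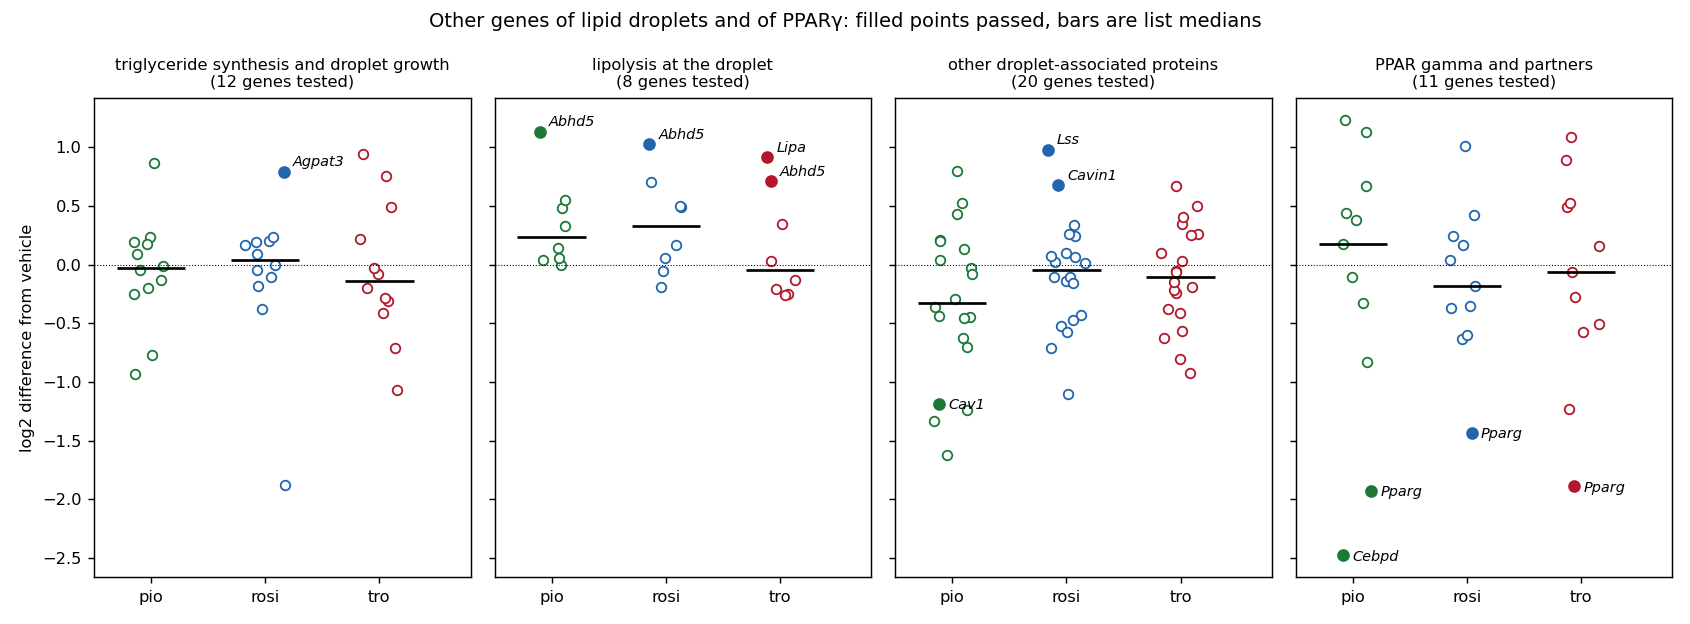
Log2 difference from vehicle (vertical axis) of the tested genes of 4 lists with each drug; filled, named points passed, open points did not, and bars are list medians. Abhd5 and Pparg are the genes filled in all 3 drug columns, above and below 0.

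The genes whose differences from vehicle lay nearest to those of each member were found by the root mean square difference, over the 8 treated arrays, of the log2 difference from the vehicle mean of the set. This is a description of the closest of many genes and carries no test. Nearest to Cidec were Angptl4, a secreted inhibitor of lipoprotein lipase (0.18), Retsat, a retinol saturase (0.20), and Gadd45g, a growth arrest gene (0.20), against a median of 1.38 over all candidates. Nearest to Plin2 were Cox6a2, a subunit of cytochrome oxidase (0.19), Cbr3, a carbonyl reductase (0.23), and Nectin2, a cell adhesion protein (0.33, median 1.45). Nearest to Cidea were Nectin2 by another probe set (0.16), Angptl4 by another probe set (0.23) and Acaa1b, a peroxisomal thiolase (0.24, median 1.18). These genes were picked for lying near members that rose, so whether they passed adds nothing to the rises of the members. Cox6a2, Cbr3, Retsat and Angptl4 (both probe sets) rose with all 3 drugs. Nectin2 (both probe sets), Gadd45g and Acaa1b rose with some of the drugs but not with all 3. Nearest to Plin4 were Rps7, a ribosomal protein (0.12), Gm15772 (0.12) and Nucb2, a calcium-binding protein (0.13, median 0.71), none of which passed with any drug. For Cideb, whose values lie near the floor, the nearest were Ccl8, a chemokine (0.37), Abhd17a (0.39) and Pak3, a kinase (0.43, median 1.33).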

How the data were processed

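Total RNA of 11 samples was measured on one-colour oligonucleotide arrays, 1 per sample. The deposited table holds linear signal intensities, which the authors had already scaled: the mean after trimming 2% at each end was 500.289 to 500.433 on every array. For the array software and probe set summary, the method is not given in the sources used. Values were kept as deposited, raised to a floor at their pooled 25th percentile (73.7), and converted to log2. Leaving out 66 controls, probe sets above the floor on at least 2 arrays were tested: 11739 of 12422. On arrays the signal over background takes the place of depth, and the number of arrays limits the precision. Groups and sets come from the titles. A linear model with a mean per group and a set term was fitted to all arrays (limma 3.58.1, R 4.3.3; intensity trend; 6 residual degrees of freedom) and tested two-sided; adjustment followed Benjamini and Hochberg within each contrast over all tested probe sets. The fit was tested on simulated data.

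Probe sets were named from the platform annotation; 10833 had 1 gene symbol, 396 several and 1193 none. A gene of a list is represented by its brightest tested probe set. Named are all members, up to 6 genes of each list with the smallest adjusted p among those that passed with a drug, and the 3 genes nearest to each member. Members and lists were chosen with earlier results of these data known. The alternatives tried were other scalings (quantile normalisation or median centring), other floors (10th percentile, 50th percentile or a constant added), testing without the filter, without the set term or without the trend, using set 1 alone, fitting just the groups compared, a replicate block, and leaving out each array; the beta-actin ratio as a covariate and leaving out 2 arrays were chosen after seeing the data. Promoter windows are from RefSeq (GRCm38.p6).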

Additional observations from a re-analysis of the deposited data

Results flagged for a closer look

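Cideb with rosiglitazone drew attention because its 2 treated arrays of set 1 lay above the vehicle mean of that set (log2 1.16 and 1.20) and the 1 treated array of set 2 below its vehicle array (-2.01, where the treated value lies under the floor). The difference of the effect between the sets was -3.18 (SE 0.80), with an unadjusted p of 0.00326 and a limma adjusted p of 1. The vehicle array of set 2, at 296.2, was the brightest of all 11 for this probe set. The cause was not tested.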

How the results depend on the processing

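Of the 8 calls of members, each kept its direction under all alternatives run, and none was lost without any one array: the count of members that rose stayed at 2, 3 and 3 for pioglitazone, rosiglitazone and troglitazone. With no set term 1 rose with rosiglitazone and 1 with troglitazone. In set 1 alone, and without the 2 arrays that stood apart, 1 rose with rosiglitazone. With no intensity trend, and in a fit of only the groups compared, 0 passed with pioglitazone, 0 with rosiglitazone and 1 with troglitazone (limma; 3 members at an unadjusted p under 0.05 with each of the first 2 drugs). The fits of only the groups compared have fewer arrays; the other causes were not tested. The labels do not say whether arrays with the same replicate number were paired across the groups. Differences between replicates 1 and 2 correlated between -0.044 and 0.01 across the groups. Deviations from the group means correlated between -0.099 and 0.095 for arrays numbered 1 or 2, and between 0.289 and 0.362 for replicate 4, which is set 2. With the replicate block no member call changed, and 114, 162 and 144 probe sets passed, against 106, 159 and 156.

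Over all probe sets the counts for pioglitazone, rosiglitazone and troglitazone were 25, 40 and 55 without the set term, 23, 19 and 37 for set 1 by itself, 6, 6 and 19 with no intensity trend, and 0 (1063 at an unadjusted p under 0.05), 18 and 40 with only the groups compared. They ranged from 43 to 111, 74 to 158 and 72 to 162 with 1 array left out. With no filter 99 and 89 passed with rosiglitazone and troglitazone, and without the 2 arrays that stood apart 58 with rosiglitazone. Where a pioglitazone array is left out, the remaining one is assumed to vary like the other groups. With pioglitazone 74 were higher and 32 lower; after quantile normalisation 42 and 43, and after median centring, with 160 in all, 139 and 21, the median of all probe sets moving from -0.08 to 0.11. With troglitazone centring moved 91 higher and 65 lower to 110 and 47. For troglitazone against pioglitazone the count of 4 became 1 without the set term, 0 for set 1 by itself, 0 with no trend and 0 with only the groups compared (629, 657 and 812 at an unadjusted p under 0.05), 25 without the 2 arrays that stood apart, and 1 to 7 with 1 array left out. With no filter 21 probe sets passed for the rosiglitazone effect between the sets.

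Some differences that did not pass changed sign. Cideb with pioglitazone was at 0.068 after centring, 0.44 in set 1 alone, 0.44 with only the groups compared, and -0.64 to 0.44 with 1 array left out. Cideb with rosiglitazone was at -0.012 with the 10th percentile floor, -0.0018 with an added constant, -0.17 without the 2 arrays that stood apart, and -0.33 to 0.96 with 1 left out; with troglitazone, at -0.77, it ranged from -1.22 to 0.066, the latter without vehicle replicate 4. Plin4 with pioglitazone was at -0.047 with no set term. Plin4 between troglitazone and pioglitazone was at 0.015 after quantile normalisation, 0.19 with no set term, 0.014 with the beta-actin ratio, 0.021 without the 2 arrays that stood apart, and -0.27 to 0.012 with 1 left out. Of 24 alternatives, 15 ended the call of Agpat3, 15 of Cav1, 14 of Cavin1, 14 of Lipa, 11 of Lss and 8 of Cebpd. At the 50th percentile floor Cideb was not tested. Contrasts between the sets have no value without a set 2 array they need.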
